A study of Homo sapiens with 4 samples.

Results

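Cells hold on to the matrix around them through integrins and syndecans, and through the plaque of proteins inside the cell that these receptors recruit. A set of 46 genes of this machinery was examined by name: 13 integrin subunits, the receptor CD44 and the tetraspanin CD151, 4 syndecans, and 27 kinases, activators, adaptors and cytoskeletal linkers of focal adhesions and hemidesmosomes. All 46 symbols matched exactly 1 identifier among the 20263 genes of the deposited table, and 44 had enough counts to be tested. The samples were of 1 established cell line, HCT116, from a human colon cancer, kept for 24 h in medium with 10% serum and given either DMSO, the solvent, or N_12, named in the series title as a derivative of the kinase inhibitor nilotinib. The labels' treatment tag gives another code, HJJ_3_5, for the N_12 samples, and states no dose. The growth protocol describes the controls only as cells not given N_12, so that DMSO as their treatment comes from the titles and the tag. Each group held 2 libraries, and the question the study names for this compound is migration along with proliferation and the epithelial to mesenchymal transition. The labels do not say that replicates were separate cultures, so the p-values reflect the scatter among these libraries alone, which could be purely technical.

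An integrin is a pair of an alpha and a beta subunit, and the pair sets which matrix protein is bound. Talins and kindlins bind the short cytoplasmic tail of the beta subunit and switch the receptor to its active state. Focal adhesion kinase and SRC-family kinases then signal through adaptors such as paxillin and p130Cas, while vinculin, alpha-actinins and filamins tie the site to actin. The integrin made of ITGA6 and ITGB4 instead binds laminin in hemidesmosomes, where plectin links it to keratin filaments. Syndecans are heparan sulfate proteoglycans that act beside integrins as co-receptors.

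Within this set the clearest differences were a rise of FERMT1, which encodes the epithelial kindlin-1, and a fall of SDC4, which encodes syndecan-4. FERMT1 was 2.32-fold higher and SDC4 was 2.14-fold lower in N_12 than in DMSO. edgeR's quasi-likelihood test, with p-values adjusted by Benjamini-Hochberg over all 14105 tested genes and a threshold of 0.05, called 1 of the 44 tested members higher and 1 lower. Over all tested genes 0.822% were called higher, 1.43% lower and 2.25% in either direction, so 2 of 44 is a share of the same order. The median log2 fold change (N_12 minus DMSO) was 0.07 over the members and 0.01 over all tested genes, with 29 members above 0 and 15 below. Over all tested genes 7190 lay above 0 and 6915 below. A total of 6 members had an unadjusted p under 0.05, against 21.8% of all tested genes. For 37 of the 44 members the 95% interval of the log2 fold change lay wholly between -1 and 1, that is, within 2-fold in either direction.

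**Figure D1:**
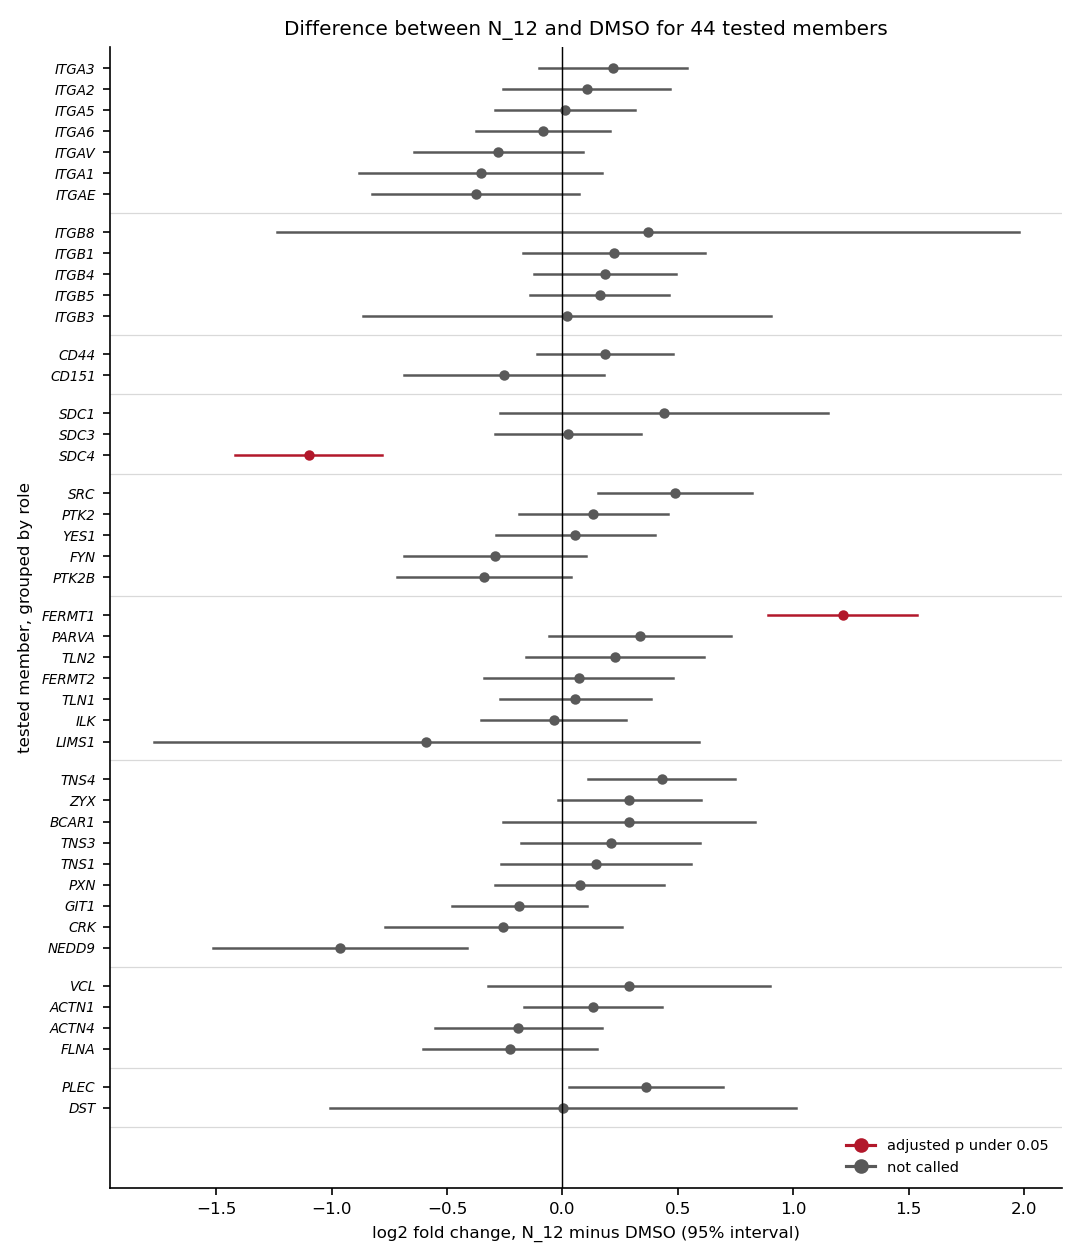
The horizontal axis gives the log2 fold change of N_12 minus DMSO with its 95% interval, and each row is 1 of the 44 tested members, grouped by role. FERMT1 (1.21) and SDC4 (-1.10) are the called members, and the other 42 lie between -0.96 and 0.49.

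The called syndecan gene is shown with the stretch of DNA before its start site, since promoter sequence differs among the members of this small family. RefSeq's promoter table (GRCh38.p14) held 34 of the 46 members and had no entry for FERMT1. The sequences below are the 250 bases before the start, 5′ to 3′ along the gene's own strand, and capitals mark matches to the GC box GGGCGG on either strand, a sequence bound by SP1-family factors. SDC4 lies on the minus strand at chr20:45348425-45348674, SDC3 on the minus strand at chr1:30908759-30909008, and SDC1 on the minus strand at chr2:20225476-20225725, the first of 2 start sites listed for it.
SDC4: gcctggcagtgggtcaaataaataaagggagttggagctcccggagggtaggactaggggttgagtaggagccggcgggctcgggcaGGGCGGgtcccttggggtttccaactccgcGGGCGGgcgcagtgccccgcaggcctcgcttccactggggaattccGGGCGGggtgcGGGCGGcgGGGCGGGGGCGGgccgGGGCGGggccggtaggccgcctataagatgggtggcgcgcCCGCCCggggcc
SDC3: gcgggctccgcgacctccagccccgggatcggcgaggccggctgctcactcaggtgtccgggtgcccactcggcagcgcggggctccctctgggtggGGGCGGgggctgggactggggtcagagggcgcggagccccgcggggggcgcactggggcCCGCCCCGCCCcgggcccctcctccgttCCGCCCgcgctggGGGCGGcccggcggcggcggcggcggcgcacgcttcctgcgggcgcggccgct
SDC1: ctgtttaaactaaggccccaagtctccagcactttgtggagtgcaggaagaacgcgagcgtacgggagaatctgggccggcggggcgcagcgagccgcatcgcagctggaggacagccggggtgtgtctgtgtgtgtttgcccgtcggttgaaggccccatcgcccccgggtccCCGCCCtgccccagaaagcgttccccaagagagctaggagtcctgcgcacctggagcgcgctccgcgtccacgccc
The SDC4 window held 8 GC boxes, that of SDC3 5 and that of SDC1 1. The GC content of these windows was 73.6%, 83.6% and 66.4% in the same order. How many other windows hold as many boxes was not examined. Of all 35116 promoter windows of this length, 42.6% held at least 1 GC box, and of the 65 windows listed for members 38 did. Other motifs were searched on both strands, and none of the 3 windows held any of them. The CCAAT box, spelled by its name, was in 32.0% of all windows. The AP-1 site, searched as TGANTCA, was in 6.57%. The core of the HIF site, searched as ACGTG, was in 18.5%, and the TEAD site, searched as GGAATG, was in 11.9%. A match describes the letters of the window and says nothing about binding in these cells.

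SDC4 encodes a syndecan that gathers in focal adhesions. Its level was 721 and 611 CPM in DMSO replicates 1 and 2 and 303 and 319 CPM in N_12 replicates 1 and 2, where CPM is the depth-normalised count, with library totals scaled by TMM. The N_12 values were both lower than either DMSO value, and the DMSO libraries were farther apart from each other than the N_12 libraries were. The means were 666 ± 77.7 and 311 ± 11.4 CPM (± SD, n = 2 per group), a log2 fold change of -1.10 (SE 0.14, 95% interval -1.42 to -0.78, adjusted p = 0.0122 by edgeR). Leaving out DMSO replicate 1 gave -0.97 and leaving out DMSO replicate 2 gave -1.21, and SDC4 was called in each case. It was not called without N_12 replicate 1 (adjusted p = 0.131), without N_12 replicate 2 (0.135) or with a replicate term and a GC and length correction together (0.0573). A fit without 1 library leaves its group with 1, which is then assumed to vary like the other group. SDC4P, a pseudogene named after it, is annotated, so reads of this gene could be split between copies.

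The other syndecans did not pass the test. SDC1, the main syndecan of many epithelia, stood at 45.9 and 25.0 CPM in DMSO and at 45.7 and 50.6 CPM in N_12, with overlapping groups (log2 fold change 0.44, 95% interval -0.27 to 1.15). SDC3 had a log2 fold change of 0.02 (-0.29 to 0.34). SDC2 had 0 counts in each of the 4 libraries, which allows up to 3 counts, or 0.0984, 0.102, 0.0712 and 0.0736 CPM in the order of the libraries (counting error only). To set genes side by side, levels were divided by exon length, with all annotated exons of a gene merged. Which transcripts these cells express was not examined, and shares and orders of genes depend on that length. SDC4 made up 87.8% and 88.5% of the summed syndecan level in DMSO and 76.2% and 75.1% in N_12. The summed level itself was 314 and 264 CPM per kb in DMSO and 152 and 162 CPM per kb in N_12, lower in both N_12 libraries. The sums and shares are given as a description and were not tested.

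**Figure D2:**
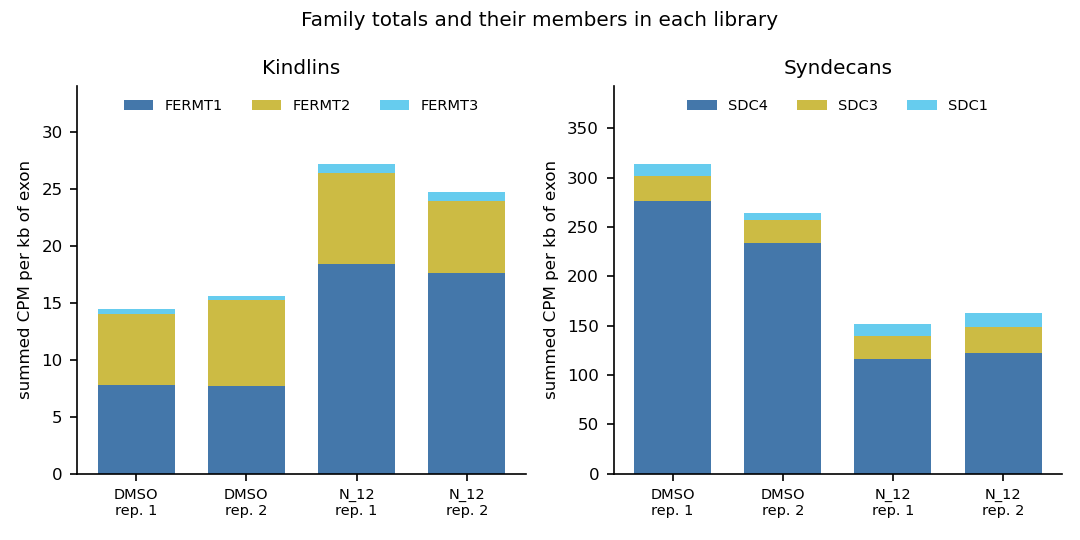
Bars give the level in CPM per kb of exon, summed over the kindlin genes (left) and the syndecan genes (right) in each library, with each gene as a coloured part; SDC2 had no counts. The FERMT1 part is larger in both N_12 libraries (18.4 and 17.6) than in DMSO (7.76 and 7.73), and the SDC4 part is smaller (116 and 122 against 276 and 234).

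The kindlins and talins activate integrins, and edgeR called 1 of the 4 listed genes, beside 2.25% of all tested genes. FERMT1, the kindlin gene of epithelial cells, had 41.6 and 41.4 CPM in DMSO and 98.5 and 94.1 CPM in N_12. The DMSO libraries were nearly equal and both N_12 libraries lay above them. The means were 41.5 ± 0.110 and 96.3 ± 3.05 CPM (n = 2 per group), a log2 fold change of 1.21 (SE 0.14, 95% interval 0.89 to 1.54, adjusted p = 0.00848 by edgeR). By p-value FERMT1 ranked 44th and SDC4 ranked 56th of the 14105 tested genes. No exon base of FERMT1 or of SDC4 was shared with another annotated gene on either strand in GENCODE 29.

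FERMT2, which encodes the widely expressed kindlin-2, had 53.0 and 64.0 CPM in DMSO and 68.4 and 54.4 CPM in N_12, so its groups overlapped (log2 fold change 0.07, 95% interval -0.34 to 0.48). FERMT3, the kindlin gene of blood cells, was no member of the set and is given to complete the family. It rested on 40 and 28 counts in DMSO and 104 and 92 in N_12 (log2 fold change 1.06, adjusted p = 0.111, not called). Per exon length FERMT1 held 53.8% and 49.7% of the summed kindlin level in DMSO and 67.5% and 71.1% in N_12, while FERMT2 held 43.2% and 48.3% and then 29.5% and 25.9%. By this measure the 2 genes were close to each other in DMSO, and in N_12 FERMT1 was the more abundant. In CPM, not divided by length, FERMT2 was the higher of the 2 in DMSO and FERMT1 in N_12. Of the talins, TLN1 held 97.1% to 97.8% of the summed level in every library, and neither TLN1 (0.06, -0.27 to 0.38) nor TLN2 (0.23, -0.16 to 0.61) was called.

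The complex of ILK, PARVA and LIMS1 anchors integrins to actin. ILK, a pseudokinase, stood near 0 (log2 fold change -0.04, -0.35 to 0.28), although 78.5% of its exon bases are shared with genes on the other strand, chiefly TAF10, and the strand setting of the counting is not given in the sources used here. PARVA, the parvin gene, had 29.5 and 23.5 CPM in DMSO and 33.3 and 33.6 CPM in N_12 (0.34, -0.06 to 0.73, adjusted p = 0.294). LIMS1, the PINCH gene, had 30.7 and 67.7 CPM in DMSO and 36.9 and 28.4 CPM in N_12. DMSO replicate 2 alone was high: without DMSO replicate 1 edgeR called LIMS1 lower (-1.05, adjusted p = 0.0402), and without DMSO replicate 2 its log2 fold change was 0.09 (adjusted p = 0.907). LIMS3 and LIMS4 are related genes, and whether reads of LIMS1 were split with them was not tested.

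**Figure D3:**
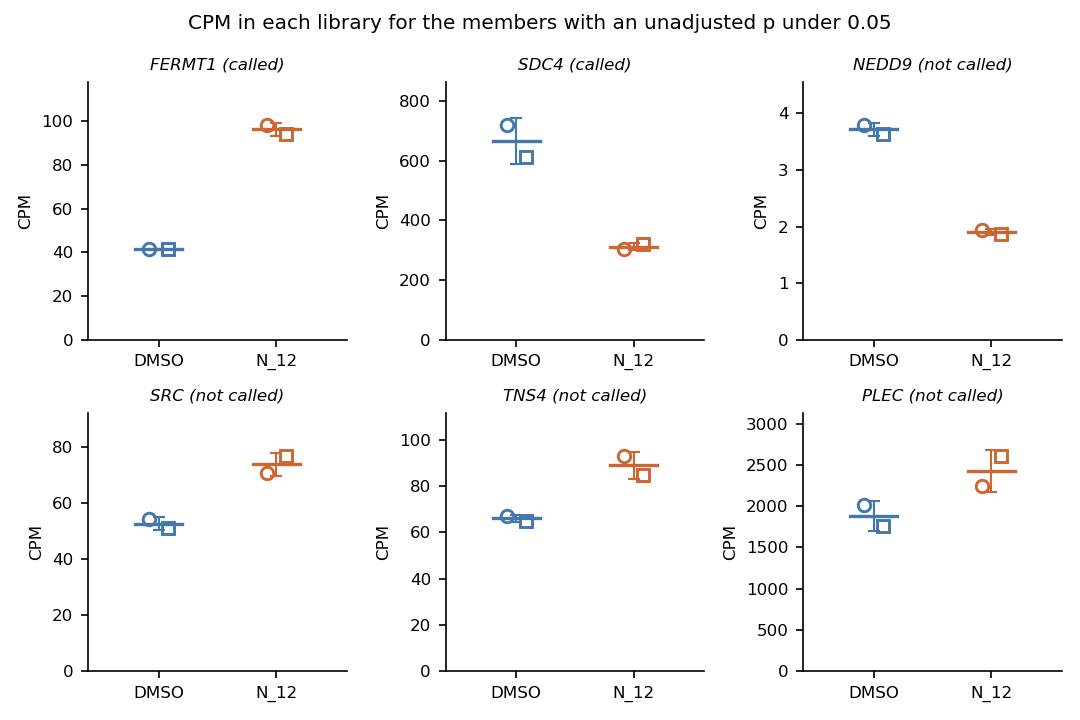
Each panel gives the CPM of 1 member in each library (circle, replicate 1; square, replicate 2) with the group mean and SD, for the 6 members with an unadjusted p under 0.05. The groups are separate for each of the 6, but these were picked by that p-value from the same libraries. Over all tested genes 54.7% have groups that do not overlap. The gap is widest relative to the replicates for FERMT1 and NEDD9.

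None of the 12 tested integrin subunits was called. Of the 7 alpha genes, the log2 fold changes ran from -0.38 to 0.22, with every 95% interval within 2-fold. ITGA3, the partner of ITGB1 in a laminin receptor, was the most abundant per exon length, at 150 and 139 CPM per kb in DMSO and 154 and 182 CPM per kb in N_12 (log2 fold change 0.22, -0.10 to 0.54). It made up 60.0% to 67.8% of the summed alpha level. ITGA6, the laminin receptor subunit of hemidesmosomes, followed at 26.1 to 28.7 CPM per kb over the 4 libraries. Next came ITGA5, the fibronectin receptor subunit (23.5 to 25.7), and ITGA2, a collagen receptor subunit (18.6 to 23.9), whose ranges overlap each other. ITGAV, which binds RGD sequences, ran from 11.2 to 15.6 CPM per kb. ITGAE, the partner of beta 7 in an E-cadherin receptor of lymphocytes (0.966 to 1.41 CPM per kb), and ITGA1, which also binds collagen (0.174 to 0.249), were far lower.

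For ITGA1, ITGA6, ITGAE and ITGAV the N_12 values were both lower than either DMSO value, and for ITGA3 both were higher. Over all tested genes 26.8% had N_12 wholly below DMSO and 27.9% wholly above (54.7% together), and of the 44 members 9 and 13 did (22 together). None of the 5 alpha genes reached an unadjusted p under 0.05. Their largest distance was that of ITGAE, from 9.38 and 8.88 CPM in DMSO to 6.43 and 7.63 CPM in N_12 (adjusted p = 0.304).

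All 5 tested beta genes had a log2 fold change above 0, from 0.02 to 0.37, and none was called. ITGB4, the beta subunit of hemidesmosomes, held 44.5% to 53.3% of the summed beta level per exon length, and ITGB1, the partner of most alpha subunits, held 37.5% to 47.0%. The order of these 2 genes changed between libraries. ITGB1 stood at 583 and 779 CPM in DMSO and at 857 and 734 CPM in N_12 (0.22, -0.17 to 0.62). ITGB4 stood at 932 and 829 CPM in DMSO and at 947 and 1054 CPM in N_12 (0.18, -0.13 to 0.49). ITGB5, a vitronectin receptor subunit, came next at 22.3 to 26.6 CPM per kb (0.16, -0.14 to 0.46).

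The remaining beta genes were scarce. ITGB8, a subunit that binds latent TGF-beta, had 4.62 and 13.1 CPM in DMSO and 13.3 and 9.54 CPM in N_12. DMSO replicate 1 alone was low, and the interval (-1.24 to 1.98) spans more than 2-fold on both sides. Without DMSO replicate 2 edgeR called ITGB8 higher (1.30, adjusted p = 0.0413), and without DMSO replicate 1 the value was -0.19. ITGB3, known from platelets, had 1.09 to 2.09 CPM, and 51.6% of its exon bases are shared with a read-through gene on the same strand. ITGB6, an epithelial subunit, had 8 counts in each DMSO library and 4 and 6 in the N_12 libraries, too few to be tested.

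**Figure D4:**
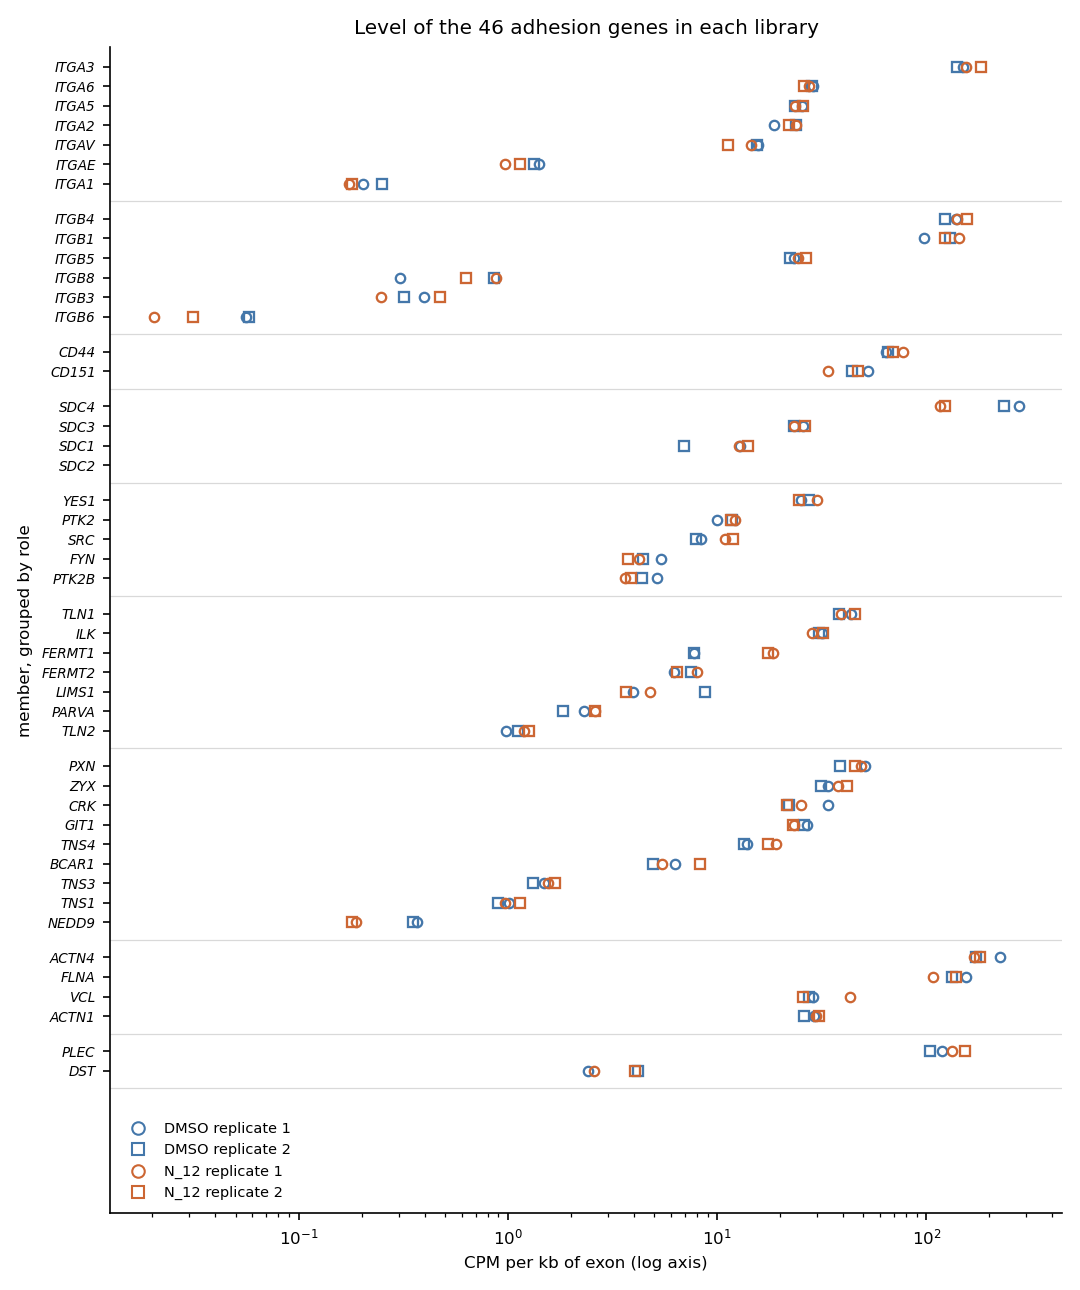
Points give the level in CPM per kb of exon on a log axis in each library for the members, grouped by role; SDC2, at 0 counts, has no points. SDC4, ACTN4, ITGA3, ITGB4, FLNA, PLEC and ITGB1 stand near or above 100, and NEDD9, ITGA1 and ITGB6 stand below 0.4.

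Among the partners of integrins, CD44, a receptor for hyaluronan, stood at 638 and 653 CPM in DMSO and 775 and 692 CPM in N_12. The groups did not overlap, but the difference was not called (0.18, -0.11 to 0.48). CD151, a tetraspanin that binds laminin-binding integrins, stood at 206 and 174 CPM in DMSO and 133 and 185 CPM in N_12, with overlapping groups (-0.25, -0.69 to 0.18). PLEC encodes plectin, which joins ITGB4 to keratin filaments, and was the member with most counts. It had 2016 and 1758 CPM in DMSO and 2243 and 2609 CPM in N_12, higher in both N_12 libraries. The log2 fold change was 0.36 (SE 0.14, 95% interval 0.03 to 0.70), with an unadjusted p of 0.0369 and an adjusted p of 0.200 by edgeR, so it was not called. DST, whose epithelial product is a hemidesmosome plakin, varied between replicates by more than between groups, with 102 and 177 CPM in DMSO and 109 and 170 CPM in N_12.

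None of the 5 kinase genes was called. SRC, the prototype of its kinase family, had 54.3 and 51.0 CPM in DMSO and 70.8 and 76.8 CPM in N_12. The groups did not overlap, and the log2 fold change was 0.49 (SE 0.14, 95% interval 0.15 to 0.82, unadjusted p = 0.00986, adjusted p = 0.115 by edgeR). DESeq2 called it (0.48, adjusted p = 0.0364), as did edgeR with a correction for GC content and length (0.45, adjusted p = 0.0496). The related kinases were YES1 (0.06, -0.29 to 0.40) and FYN (-0.29, -0.69 to 0.10). Per exon length YES1 was the most abundant of the 3 in every library, with 61.1% to 69.0% of their sum. PTK2, the focal adhesion kinase gene, had a log2 fold change of 0.13 (-0.19 to 0.46). Its relative PTK2B, which encodes PYK2, had 40.9 and 34.5 CPM in DMSO and 28.8 and 30.7 CPM in N_12 (-0.34, -0.72 to 0.04, adjusted p = 0.27).

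Of the 9 adaptor and scaffold genes none was called, 6 lay above 0 and 3 below. NEDD9, a scaffold of the p130Cas family that is phosphorylated by focal adhesion kinase, had 3.80 and 3.64 CPM in DMSO and 1.95 and 1.86 CPM in N_12. It is scarce, resting on 116 and 107 counts in DMSO and 82 and 76 in N_12, and its groups were well apart. The log2 fold change was -0.96 (SE 0.24, 95% interval -1.51 to -0.41), with an unadjusted p of 0.0038 and an adjusted p of 0.0795 by edgeR. With the GC and length correction it was called lower (-1.05, adjusted p = 0.0448), whereas DESeq2 did not call it (adjusted p = 0.0924). BCAR1, which encodes p130Cas itself, held 90.0% to 95.5% of the summed level of that family per exon length and was not called (0.29, -0.26 to 0.83).

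TNS4, a short tensin found in epithelia that binds integrin tails without the actin-binding part of the longer tensins, had 67.2 and 64.9 CPM in DMSO and 93.0 and 84.9 CPM in N_12. Both N_12 libraries were higher, with a log2 fold change of 0.43 (SE 0.14, 95% interval 0.11 to 0.75), an unadjusted p of 0.0146 and an adjusted p of 0.135 by edgeR. It was not called under any of the 14 alternatives tried, and its value there ran from 0.35 to 0.49. TNS1 (0.15) and TNS3 (0.21), the longer tensins, were less abundant per exon length and were not called. PXN, the paxillin gene, had a log2 fold change of 0.08 (-0.29 to 0.44), ZYX, the zyxin gene, of 0.29 (-0.02 to 0.60), GIT1, which scaffolds regulators of small GTPases, of -0.19 (-0.48 to 0.11), and CRK, an SH2 and SH3 adaptor, of -0.26 (-0.77 to 0.26).

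The linkers to actin were abundant and none was called. ACTN4, an alpha-actinin that crosslinks filaments, stood at 1374 and 1054 CPM in DMSO and 1030 and 1097 CPM in N_12. FLNA, which encodes filamin A, stood at 1631 and 1406 CPM in DMSO and 1132 and 1464 CPM in N_12. In both genes the groups overlapped and DMSO replicate 1 was the highest library. VCL, the vinculin gene, had 288, 274 and 256 CPM in DMSO replicates 1 and 2 and N_12 replicate 2, and 430 CPM in N_12 replicate 1. ACTN1 had a log2 fold change of 0.13 (-0.17 to 0.43).

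A list of 84 other adhesion plaque, tetraspanin and proteoglycan genes gave 73 tested genes, of which 0 were called higher and 2 lower by edgeR (0.822% and 1.43% of all genes), with a median log2 fold change of 0.04 beside 0.01 over all genes. Of the 73, 5 higher and 6 lower genes had an unadjusted p under 0.05 (11.0% and 10.8% of all genes), and DESeq2 likewise called 0 higher and 2 lower (4.26% and 5.01% of all genes). CRKL, the close relative of CRK that couples p130Cas and paxillin to small GTPases, fell from 426 and 375 CPM in DMSO to 224 and 230 CPM in N_12 (-0.82, SE 0.13, adjusted p = 0.0249). CAV1, the coat protein gene of caveolae, fell from 404 and 411 CPM to 271 and 249 CPM (-0.65, SE 0.13, adjusted p = 0.0458). CRKL was called under 8 of 14 alternatives and CAV1 under 6. The CRKL call ended without DMSO replicate 1 (-0.72, adjusted p = 0.0842). That of CAV1 ended without either DMSO library (adjusted p = 0.128 and 0.0967). Neither was called by limma-voom (adjusted p = 0.051 and 0.0724). Per exon length CRKL held 70.3% and 76.2% of the CRK and CRKL sum in DMSO and 62.6% and 66.6% in N_12. Of the tested leukocyte alpha subunits of this list, ITGAM was scarce at 0.918 to 1.88 CPM and ITGAX stood at 11.0 to 11.9 CPM. ITGB2, the beta subunit they pair with, had at most 0.147 CPM.

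Ligands form the other side of these contacts. Of 45 listed genes for matrix proteins and other ligands of integrins or syndecans 34 were tested, 0 were called higher and 1 lower, and the median log2 fold change was -0.08. Of the 34, 2 higher and 8 lower genes had an unadjusted p under 0.05, and DESeq2 called 0 higher and 5 lower, beside the same shares of all genes as above. THBS1, the thrombospondin-1 gene, fell from 31.2 and 27.9 CPM in DMSO to 11.2 and 16.4 CPM in N_12 (-1.10, SE 0.21, adjusted p = 0.0464). THBS1 was called under 6 of 14 alternatives. Leaving out DMSO replicate 1 ended this call (-1.02, adjusted p = 0.0922), as did leaving out either N_12 library (0.145 and 0.128), scaling by library totals (0.0545), limma-voom (0.0754), non-robust dispersions (0.0783), and the GC and length correction without (0.0529) or with a replicate term (0.0948). After THBS1, CCN2 had the smallest p-value of the ligand genes and was not called (-1.27, adjusted p = 0.0569 by edgeR). It stood at 7.12 and 5.03 CPM in DMSO and 2.14 and 2.89 CPM in N_12. CCN1 was not called either (-0.68, adjusted p = 0.0938). DESeq2 called both lower, and the fit with the replicate term also called CCN2 lower. The laminin beta chains were looked at after their values were seen, and none was called in the reported setting. LAMB2 and LAMB3 were called lower by DESeq2, with the GC and length correction and with the replicate term. LAMB3, a chain of the laminin bound by ITGA6 with ITGB4 and by ITGA3, had 338 and 315 CPM in DMSO and 177 and 234 CPM in N_12 (-0.67, adjusted p = 0.0759). LAMB2 had a log2 fold change of -0.56 (adjusted p = 0.118) and LAMB1 of 0.46 (adjusted p = 0.137), each with groups that did not overlap. LAMA3, a laminin alpha chain that assembles with LAMB3, was not called either (0.02, -0.44 to 0.48).

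The libraries held 29769568 to 41717938 counts, with the 2 N_12 libraries deeper than the 2 DMSO libraries. Of 9 epithelial markers 5 (EPCAM, KRT8, KRT18, KRT19 and CDH1) were above 1 CPM in every library, while VIL1, LGALS4, CEACAM5 and CDH17, markers of differentiated intestinal cells, were at most 0.295 CPM. The summed epithelial marker level was 4061 to 4594 CPM in DMSO and 3329 to 3674 CPM in N_12. Its largest parts were KRT8 (means 1851 CPM in DMSO and 1437 CPM in N_12) and KRT19 (1635 and 1308 CPM). KRT18 had means of 496 and 501 CPM with overlapping groups, and none of the 5 markers was called. The part of the summed level in the results above was not tested. In such bulk libraries fewer cells of a kind and less RNA per cell cannot be told apart. Of the leukocyte, fibroblast and endothelial markers only CD68 and COL1A1 exceeded 1 CPM in every library. For CD68, 81.7% of the exon bases are shared with another gene on the same strand. PTPRC, CD3E, FCGR3A, COL1A2, DCN and LUM had 0 counts throughout.

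**Figure D5:**
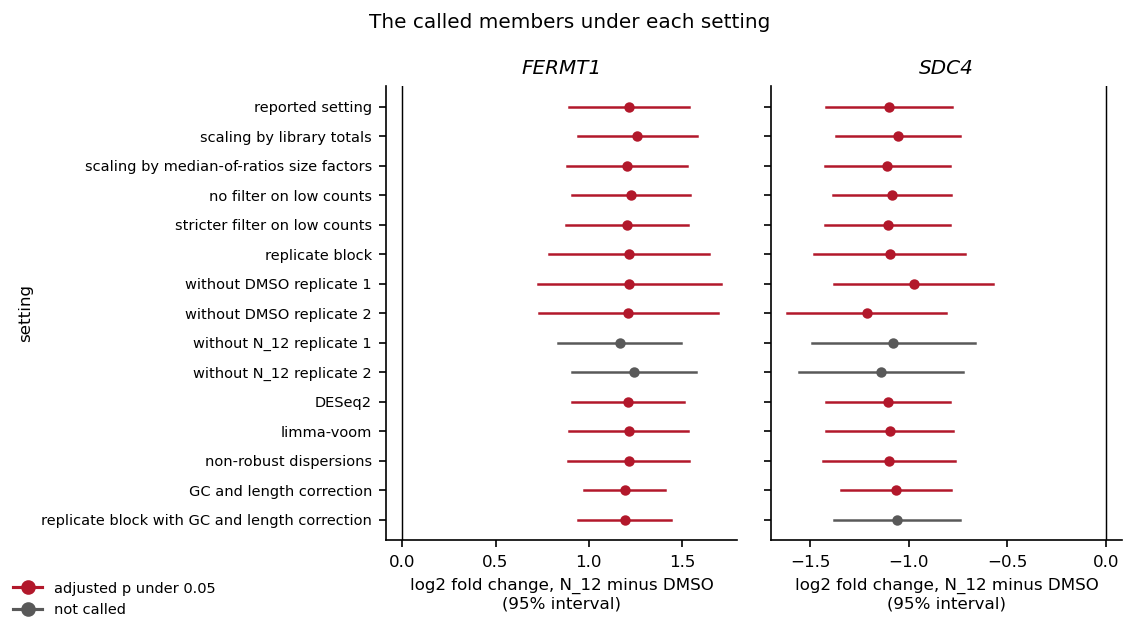
Points give the log2 fold change with its 95% interval for FERMT1 and SDC4 under the reported setting and 14 alternatives. Over the alternatives FERMT1 lies between 1.17 and 1.26 and SDC4 between -1.21 and -0.97, and grey marks the settings in which the call was lost.

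The size of both called differences varied little with the processing. FERMT1 was called under 12 of 14 alternatives and SDC4 under 11. Both were the only called members with scaling by library totals (2.16% of all tested genes called), with median-of-ratios size factors (2.28%), without a filter on low counts (2.20%), with a stricter filter (3.68%), with limma-voom (0.929%) and with non-robust dispersions (0.929%). With DESeq2 4.26% of genes were called higher and 5.01% lower (9.27% in all), and among members FERMT1 and SRC were higher and SDC4 lower. With GC and length correction these shares were 2.95%, 3.75% and 6.70%, and NEDD9 joined SDC4 as lower and SRC joined FERMT1 as higher. A term for the replicate number gave 3.11%, 3.72% and 6.83%, with FERMT1 higher and NEDD9 and SDC4 lower. That term together with the GC and length correction gave 0.128%, 0.227% and 0.354%, and FERMT1 alone was called. Without DMSO replicate 1 the shares were 0.655%, 0.972% and 1.63%, with LIMS1 called lower beside SDC4. Without DMSO replicate 2 they were 1.56%, 1.55% and 3.11%, with ITGB8 called higher beside FERMT1.

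Without N_12 replicate 1 or N_12 replicate 2 edgeR called 0 of all genes (0.00%), although 2855 and 2763 had an unadjusted p under 0.05. The FERMT1 values were then 1.17 (adjusted p = 0.108) and 1.24 (0.119), and those of SDC4 -1.08 (0.131) and -1.14 (0.135).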

How the data were processed

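Messenger RNA of 4 HCT116 samples (2 with DMSO, 2 with N_12, 24 h) was sequenced from 1.4 ug of total RNA each, per the labels' protocols. The authors deposited whole-number counts per gene with human Ensembl identifiers and no normalization. The sources used here do not give the aligner, the counter or the strand setting. GRCm38 and mm10, both mouse builds, are listed in the submitters' processing notes although the identifiers are human. Symbols were matched for 20148 of 20263 identifiers. Lengths (merged exons), GC (longest transcript) and overlaps came from GENCODE 29.

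edgeR 4.0.16 in R 4.3.3 was run on the counts (TMM, expression filter by group, robust quasi-likelihood, no replicate term), and standard errors were derived from the F statistic. Alternatives used limma 3.58.1, DESeq2 1.42.0 and other scalings, filters, libraries left out, a replicate term and a smooth GC and length trend. The fit was tested on simulated data in which every gene had the same dispersion, so scatter that differs between genes was not simulated. Within each group the replicates were distinct libraries (chi-square over degrees of freedom 37.5 for DMSO and 59.6 for N_12).

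Members and lists were chosen with earlier results of these data known. Named were members with an unadjusted p under 0.05, members needed to describe a role, and called genes of the other lists. FERMT3, CCN1, CCN2 and the laminin chains were added after their values were seen, as were genes named to describe low levels.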

Additional observations from a re-analysis of the deposited data

How the results depend on the processing

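FERMT1, SDC4, NEDD9, SRC, TNS4 and PLEC kept their direction under each of the 14 alternatives that could test them (13 for NEDD9, which a minimum of 5 CPM removed). Of the 36 other tested members that no setting called, 14 changed sign under at least 1 alternative. VCL did so only without N_12 replicate 1 and CRK only without DMSO replicate 1. LIMS1 and ITGB8 gained a call without 1 library and changed sign without another: LIMS1 was -1.05 without DMSO replicate 1 and 0.089 without DMSO replicate 2, and ITGB8 was -0.19 without DMSO replicate 1 and 1.30 without DMSO replicate 2. The cause was not tested. The median over members moved by less than the spread between replicates (0.0526 on the log2 scale) under each alternative. The labels do not say that replicate numbers pair libraries. Deviations of same-numbered libraries had a correlation of -0.0895 over genes, and with 2 libraries per group the other pairing has the same value with the opposite sign, so it does not settle the pairing. With the replicate block 963 of all genes were called instead of 317, 1 member higher and 2 lower (NEDD9 and SDC4) and 4 ligand genes lower (CCN2, LAMB2, LAMB3 and THBS1). With GC and length correction 945 genes were called, 2 members higher (FERMT1 and SRC), 2 lower (NEDD9 and SDC4) and 4 ligand genes lower, with LAMB2 and LAMB3 but not THBS1 among them. With replicate block and GC and length correction together 50 genes were called, 1 member higher and 0 lower (SDC4 -1.06, adjusted p = 0.0573), 0 other adhesion genes and 0 ligand genes lower. DESeq2 called 1192 genes, 2 members higher and 5 ligand genes lower. limma-voom and edgeR without robust dispersions each called 131 genes, with 0 other adhesion genes and 0 ligand genes lower. Scaling by library totals left 1 other adhesion gene and 0 ligand genes lower. Leaving out 1 library gave 0 to 451 genes, 0 to 2 members higher, 0 to 2 members lower, 0 to 1 other adhesion gene higher (KANK2), 0 to 1 lower and 0 to 2 ligand genes lower. Counts were too low to test SDC2 and ITGB6.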
